A study of Mus musculus with 10 samples.

Results

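Small cell lung cancer is sorted by the transcription factors that set the identity of its cells, and 9 such genes were followed here in a mouse line of this cancer: Neurod1, Insm1, Prox1, Nfib, Nkx2-1, Foxa1, Foxa2, Rest and Yap1. They were taken by symbol from a table of 26335 genes. A total of 8 of the 9 had a value, and Neurod1 was not analysed here. RNA was sequenced in 5 control libraries, from cells given the solvent DMSO, and 5 libraries from cells kept with stiripentol, an inhibitor of lactate dehydrogenase used as an antiepileptic drug, each for 48 h. The line was derived from a primary lung tumor of a mouse in which Rb1 and Trp53 had been deleted by Cre delivered to the airways with an adenovirus, so both groups carry these deletions, and it is 1 line. The labels do not say whether the 5 libraries of a group came from separate cultures, so every p-value below measures the spread between these libraries, which may be technical. In bulk RNA, fewer cells of a kind and less RNA per cell cannot be told apart.

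Most small cell lung tumors are neuroendocrine and depend on factors of the neuronal and neuroendocrine program. INSM1 is a zinc finger repressor that switches off non-neuroendocrine genes, PROX1 is a homeobox factor of neuroendocrine and lymphatic cells, and NFIB opens chromatin and drives metastasis in mouse models of this cancer. NKX2-1, FOXA1 and FOXA2 pattern the lung endoderm, the FOXA proteins by binding nucleosomal DNA ahead of other factors. REST silences neuronal genes through a DNA element called RE1 and opposes the neuroendocrine state. YAP1 is the coactivator at the end of the Hippo kinase cascade, works through TEAD factors, and marks tumors that have low neuroendocrine expression.

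The genes lie on 6 mouse chromosomes (GRCm38 with GENCODE M21). Insm1 is at chr2:146221921-146225020 (plus strand), Foxa2 at chr2:148042877-148046969 (minus), Foxa1 at chr12:57540628-57546916 (minus) and Nkx2-1 at chr12:56531958-56536908 (minus). Prox1 is at chr1:190118035-190170714 (minus), Nfib at chr4:82290173-82705750 (minus), Rest at chr5:77265491-77286432 (plus) and Yap1 at chr9:7931999-8004596 (minus).

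The promoters of 4 genes are shown. Foxa1 was called lower with stiripentol whichever library was left out, and the target genes of Yap1 were lower. Foxa2 differed in direction between sets of libraries matched by size, and Nkx2-1 had few reads. RefSeq (GRCm38.p6) gave a promoter for 6 of the 9 genes. Each sequence holds the bases ahead of the RefSeq start site on the minus strand, at chr12:57546122-57546361 (Foxa1), chr9:8004597-8004846 (Yap1), chr2:148046970-148047219 (Foxa2) and chr12:56536909-56537158 (Nkx2-1). Capitals mark a match to one of 4 motifs searched on both strands: the forkhead motif TGTTTAC, the TEAD motif GGAATG, the NKX2 motif CACTTG and the NEUROD1 E-box CAGATG.
Foxa1: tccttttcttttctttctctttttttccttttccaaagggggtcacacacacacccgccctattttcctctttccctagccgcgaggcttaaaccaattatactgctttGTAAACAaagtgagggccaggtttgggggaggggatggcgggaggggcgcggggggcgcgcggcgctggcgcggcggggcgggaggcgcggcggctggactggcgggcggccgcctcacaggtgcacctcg
Yap1: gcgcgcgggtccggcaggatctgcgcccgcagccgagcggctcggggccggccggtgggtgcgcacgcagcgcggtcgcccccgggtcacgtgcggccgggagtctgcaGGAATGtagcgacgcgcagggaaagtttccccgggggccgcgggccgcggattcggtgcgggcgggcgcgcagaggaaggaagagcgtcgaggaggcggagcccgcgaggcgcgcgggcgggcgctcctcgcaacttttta
Foxa2: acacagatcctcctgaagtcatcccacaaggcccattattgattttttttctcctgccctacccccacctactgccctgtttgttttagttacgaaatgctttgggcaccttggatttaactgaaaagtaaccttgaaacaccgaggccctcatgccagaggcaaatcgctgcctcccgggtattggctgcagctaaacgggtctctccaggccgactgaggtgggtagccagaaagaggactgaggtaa
Nkx2-1: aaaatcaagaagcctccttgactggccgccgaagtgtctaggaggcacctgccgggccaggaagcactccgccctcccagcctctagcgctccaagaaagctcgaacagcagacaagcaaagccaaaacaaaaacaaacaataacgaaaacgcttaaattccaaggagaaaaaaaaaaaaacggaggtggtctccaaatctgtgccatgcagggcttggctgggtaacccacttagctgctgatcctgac

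The Foxa1 promoter held the forkhead motif on the opposite strand, 141 bases before the RefSeq start, and the Yap1 promoter held the TEAD motif, also 141 bases before the start. The 10 bases next to the Foxa1 start, which GENCODE places in an exon, are not printed. The Foxa1 window lies inside the gene as GENCODE bounds it, since that gene reaches upstream to chr12:57546916. Its forkhead match is thus ahead of the RefSeq start but within the GENCODE gene. The forkhead letters are in 3.17% and the TEAD letters in 12.6% of 32851 mouse promoters. The NKX2 and NEUROD1 letters, found in 11.6% and 14.4% of them, were in none of the 4 windows, and the Foxa2 and Nkx2-1 windows held none of the motifs. A match describes the letters only.

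Library totals recovered from the table ran from 22375625 to 65299372 reads in control and from 55015760 to 60670901 in stiripentol. The libraries of each group fell into a cluster of 3 and a cluster of 2. Controls 1 to 3 formed one, controls 4 and 5 the other, stiripentol 3 to 5 the cluster of 3, and stiripentol 1 and 2 the cluster of 2. Pearson r between libraries of one group, across genes, was 0.983 to 0.997 within a cluster and 0.920 to 0.939 between them. A gene with 0 reads was listed at -4.82 in controls 1 to 3 and at -4.74 in the other 7 libraries, so the table was normalized in 2 sets. Nothing in the sources says what the clusters are, and clusters were matched across groups by their size only, so the change of each tested member and the calls of each pathway list are also given inside each cluster.

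The labelled cell type was checked first. Of 12 neuroendocrine marker genes with values, 9 stayed under 1 CPM (the share of a library's reads that a gene took, scaled to a fixed total, the same for every library) in every library, among them Chgb, Syp, Dll3, Scg2 and Ddc. The summed neuroendocrine markers were 262 to 318 CPM in control and 210 to 322 CPM in stiripentol libraries and came mainly from the adhesion molecules Ncam1 and Cadm1. The markers of non-neuroendocrine tumor cells, such as Vim, Cd44 and Axl, summed to 7441 to 8412 CPM in control and 5721 to 7562 CPM in stiripentol libraries. Most of the defining neuroendocrine markers were thus near 0 in this line.

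The baseline order of the members was read per kilobase of exon, so that long and short genes could be set side by side. The control mean was 20.9 CPM per kb for Foxa1 (± 1.03 SD, n = 5), 17.4 for Yap1 (± 1.64), 11.9 for Rest (± 1.19) and 10.3 for Nfib (± 2.32). Foxa1 and Yap1 did not overlap, with 19.4 to 21.9 and 15.6 to 19.0 CPM per kb, nor did Yap1 and Rest, whereas Rest and Nfib overlapped, at 10.6 to 13.7 and 6.94 to 12.4. Foxa2 followed at 2.92 CPM per kb (± 2.00), Prox1 at 0.249 (± 0.0931), Nkx2-1 at 0.106 (± 0.0680) and Insm1 at 0.00780 (± 0.0125). Thus the 2 genes linked to the non-neuroendocrine state, Yap1 and Rest, stood far above Prox1 and Insm1. Nfib, named above beside Insm1 and Prox1, was not low and stood near Rest. In CPM without the length, which suits a 3′ library, the order was Yap1, Nfib, Rest and Foxa1, with 161, 154, 85.9 and 69.7 CPM. The methods name a 3′ kit and the sample records a total RNA kit, so both orders are given.

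**Figure D1:**
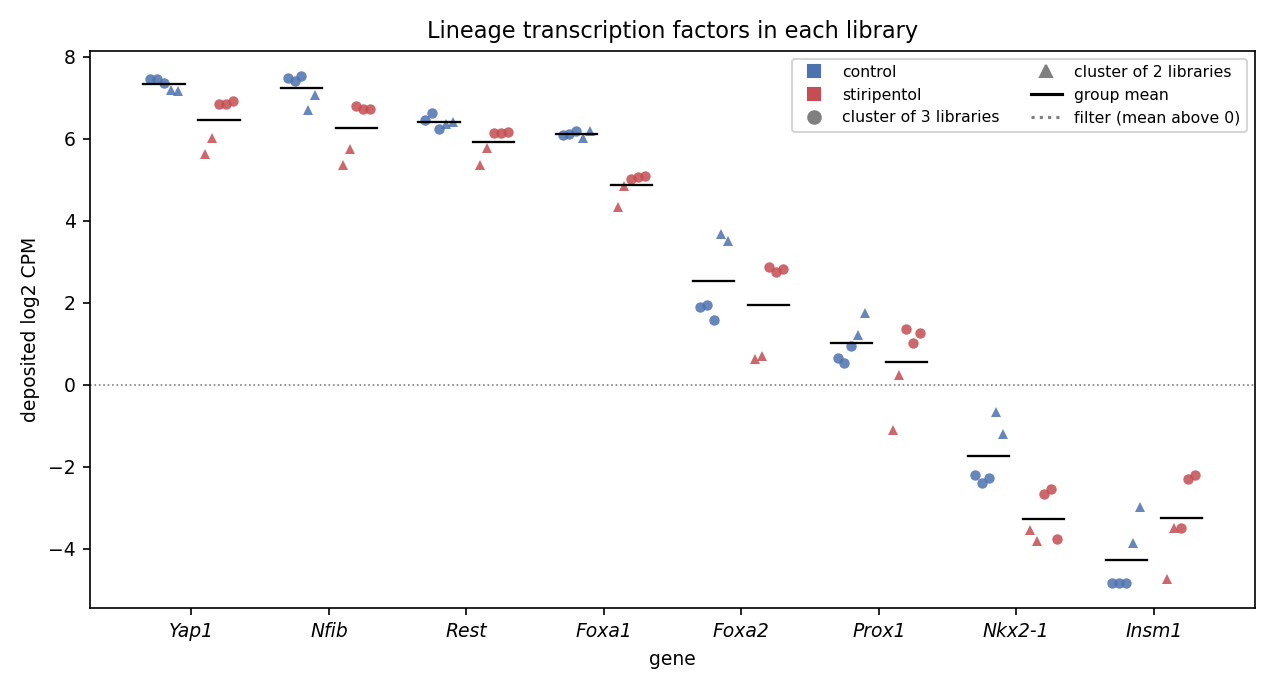
Log2 CPM of the 8 lineage factors in each of 5 control and 5 stiripentol libraries, with points for libraries, marked by cluster, and bars for group means; the dotted line is the limit for the fit. Foxa1, Rest, Yap1 and Nkx2-1 show no overlap between groups, and Foxa2 shows the 2 clusters apart within each group. Of the genes in the fit, which leaves out Nkx2-1, 14.3% showed no overlap with stiripentol lower.

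Groups were compared on log2 CPM with limma over the 12306 genes with a mean above 0, with calls made below an adjusted p of 0.05. Among the 6 members tested, Foxa1, Nfib, Yap1 and Rest fell, none rose, and Prox1 and Foxa2 were not called. Over all genes tested, 14.1% were called lower and 13.6% higher. The groups did not overlap for 14.3% of these genes with stiripentol lower and for 13% with stiripentol higher. Insm1 and Nkx2-1 were below the limit of the fit and are described by their reads and an exact permutation test, in which 5 against 5 libraries allow no two-sided p below 0.00794. The median log2 change of all genes tested was -0.06 as deposited and 0.05 after quantile normalization, and all 4 calls held under both.

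Foxa1 had the clearest difference. It stood at 6.10, 6.12, 6.19, 6.01 and 6.18 log2 CPM in controls 1 to 5 and at 4.34, 4.86, 5.01, 5.07 and 5.10 in stiripentol 1 to 5. Every stiripentol library was below every control library, and the controls of both clusters were alike. The log2 change was -1.25 (SE 0.15, limma adjusted p = 0.000404, 95% confidence interval -1.58 to -0.92), or 69.7 ± 3.43 CPM against 29.8 ± 5.71 CPM (SD, n = 5 each). Of the genes tested, 7.26% had a lower change. Foxa1 kept its call when any 1 library was left out, with adjusted p from 0.000259 to 0.00183.

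Yap1 stood at 7.46, 7.45, 7.37, 7.19 and 7.17 log2 CPM in controls 1 to 5 and at 5.62, 6.02, 6.86, 6.86 and 6.91 in stiripentol 1 to 5. The groups did not overlap, and stiripentol 1 and 2 were about a log2 unit below stiripentol 3 to 5. The log2 change was -0.87 (SE 0.25, limma adjusted p = 0.0250, interval -1.42 to -0.33), and the means were 161 ± 15.2 and 93.4 ± 33.6 CPM. The call was lost without control 1, 2 or 3 or without stiripentol 2, with adjusted p up to 0.0613.

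Nfib, like Yap1, was lowest in stiripentol 1 and 2. Its values were 7.49, 7.41, 7.53, 6.70 and 7.06 log2 CPM in controls 1 to 5 and 5.37, 5.74, 6.80, 6.73 and 6.72 in stiripentol 1 to 5. Control 4 was below all of stiripentol 3 to 5, so the groups overlapped. The log2 change was -0.97 (SE 0.30, limma adjusted p = 0.0361, interval -1.63 to -0.30). The call was lost without any one of controls 1, 2, 3 and 5 or stiripentol 1 and 2, with adjusted p up to 0.0862.

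Rest showed the smallest of the 4 falls. It stood at 6.46, 6.63, 6.25, 6.35 and 6.41 log2 CPM in controls 1 to 5 and at 5.35, 5.77, 6.15, 6.13 and 6.16 in stiripentol 1 to 5. The groups did not overlap, but stiripentol 3 to 5 came close to control 3, the lowest control. The log2 change was -0.51 (SE 0.17, limma adjusted p = 0.0426, interval -0.87 to -0.14). The call was lost without any 1 control or without stiripentol 1 or 2, with adjusted p up to 0.0987.

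Foxa2, the close relative of Foxa1, separated the clusters within each group, and in opposite order. It stood at 1.90, 1.94, 1.59, 3.68 and 3.51 log2 CPM in controls 1 to 5 and at 0.62, 0.70, 2.88, 2.74 and 2.82 in stiripentol 1 to 5. Controls 4 and 5 were the highest libraries and stiripentol 1 and 2 the lowest. Over all 10 libraries the log2 change was -0.57 (SE 0.61, limma adjusted p = 0.496), and its interval of -1.92 to 0.77 covered a large fall as well as a rise.

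Prox1 took the same pattern at a lower level. Its values were 0.65, 0.54, 0.94, 1.21 and 1.76 log2 CPM in controls 1 to 5 and -1.10, 0.25, 1.36, 1.01 and 1.26 in stiripentol 1 to 5. The groups overlapped, and stiripentol 1 was the lowest library. The log2 change was -0.46 (SE 0.47, limma adjusted p = 0.477, interval -1.51 to 0.58).

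Nkx2-1 had 12, 9, 11, 38 and 9 reads in controls 1 to 5 and 3, 2, 7, 8 and 2 reads in stiripentol 1 to 5. On the log2 CPM scale these were -2.19, -2.39, -2.26, -0.66 and -1.19 against -3.53, -3.80, -2.66, -2.55 and -3.76. All stiripentol libraries were below all control libraries, at reads too few for a precise fold. The means were -1.74 ± 0.77 and -3.26 ± 0.61 (SD, n = 5), and the exact permutation p was 0.00794, the smallest the design allows. Groups that did not overlap with stiripentol lower were also found for 14.3% of the genes tested. Those genes lie above the limit of the fit and do not include Nkx2-1, so the share is from higher levels.

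Insm1 was barely detected. It had 0, 0, 0, 2 and 2 reads in controls 1 to 5 and 0, 3, 3, 10 and 10 reads in stiripentol 1 to 5. The most reads were in stiripentol 4 and 5, and 4 libraries had none. The exact permutation p was 0.151, and a total of 4 reads in control and 26 in stiripentol allows no statement on its level.

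**Figure D2:**
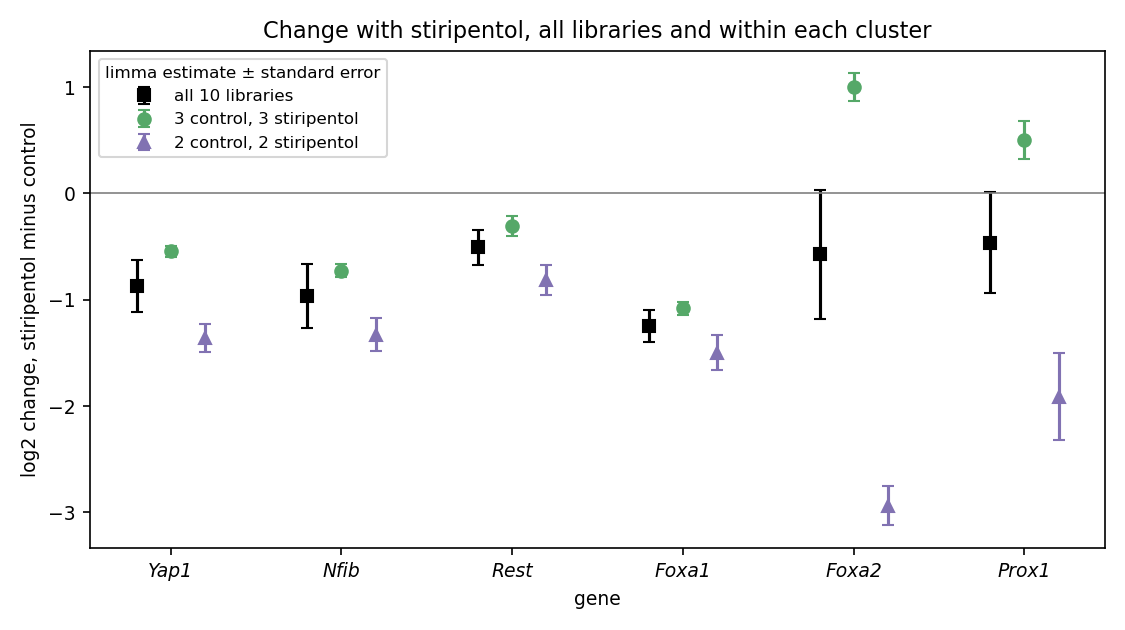
Log2 change (stiripentol minus control, limma) of the 6 tested members over all 10 libraries and within each library cluster, with error bars for the standard error of the limma estimate. Foxa1, Nfib, Yap1 and Rest lie below 0 in all 3 fits, and Foxa2 and Prox1 lie above 0 in the cluster of 3 and below 0 in the cluster of 2.

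Within the clusters as matched by size, 4 members kept their direction and 2 did not. In the cluster of 3 control and 3 stiripentol libraries, where 27.4% of 12438 genes were called lower and 37.4% higher, the log2 change was -1.08 for Foxa1, -0.73 for Nfib, -0.55 for Yap1 and -0.30 for Rest, with limma adjusted p of 9.71e-06, 4.81e-05, 0.000125 and 0.0237. Foxa2 rose there by 1.00 (SE 0.13, adjusted p = 0.000386) and Prox1 by 0.50 (SE 0.18, adjusted p = 0.0378). In the cluster of 2 and 2, where 45.7% of 12175 genes were called lower and 26.2% higher, all 6 were called lower. The log2 changes were -1.50 for Foxa1, -1.33 for Nfib, -1.36 for Yap1 and -0.82 for Rest, with limma adjusted p of 1.34e-05, 2.06e-05, 6.96e-06 and 0.000371. Foxa2 fell by 2.94 (SE 0.18, adjusted p = 3.56e-07) and Prox1 by 1.91 (SE 0.41, adjusted p = 0.00153). The median change of all genes tested was 0.08 in the cluster of 3 and -0.23 in the cluster of 2. The clusters were found in these same values, which makes the spread inside them small. The p-values and calls inside a cluster can therefore be too strong and serve as description only.

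The turn of Foxa2 and Prox1 came with levels that already differed between control clusters. Foxa2 averaged 1.81 log2 CPM in controls 1 to 3 and 3.60 in controls 4 and 5, against 2.81 in stiripentol 3 to 5 and 0.66 in stiripentol 1 and 2. Prox1 averaged 0.71 and 1.49 in the same control clusters, and 1.21 and -0.42 in the stiripentol clusters. Foxa1, by contrast, averaged 6.14 and 6.10 in the control clusters. Nkx2-1 was lower with stiripentol in both clusters, by differences of -0.71 and -2.74. The turn of Foxa2 and Prox1 rests on the match by size. Set the other way, controls 1 to 3 stood against stiripentol 1 and 2, and controls 4 and 5 against stiripentol 3 to 5. Foxa2 and Prox1 were then lower with stiripentol in both pairs. Controls 1 to 3 were also the libraries of the other normalization set. In the cluster of 3, group and normalization set therefore cannot be told apart. With the 7 libraries of 1 set, controls 4 and 5 and all stiripentol libraries, Foxa1 was the 1 member still called (limma adjusted p = 0.0107).

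The members called lower shared their pattern over the libraries. Pearson r over the 10 libraries, which share both group and cluster, was 0.974 between Nfib and Yap1, 0.966 between Rest and Yap1, 0.917 between Nfib and Rest and 0.892 between Foxa1 and Yap1. Foxa2 went with Prox1, at 0.849, more than with Foxa1, at 0.432. Among all genes tested, the most alike to Yap1 were Cdc42ep1, Gas2l1 and Ppp1r9b (r of 0.997, 0.996 and 0.996), and to Nfib they were Wnt7b, Phlpp1 and Runx1 (0.997, 0.997 and 0.995). Those most alike to Foxa1 were Ebf3, Lats2 and Irs1 (0.994, 0.992 and 0.991), and to Rest Tpbg, Pik3r4 and Klhl25 (0.990, 0.985 and 0.985). For Foxa2 they were Padi1, Bloc1s3 and F630042J09Rik (0.989, 0.984 and 0.984), and for Prox1 Zranb1, Zfp354c and Pcmtd1 (0.972, 0.966 and 0.965). Lats2, a kinase of the Hippo cascade that restrains YAP1, is thus among the genes most alike to Foxa1.

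Most target genes of YAP1 were lower with stiripentol. Of 23 tested, 14 fell and 1 rose, which is 60.9% against the 14.1% of all genes called lower, and their median log2 change was -1.26. In the cluster of 3, 17 fell and 3 rose with a median of -0.93, and in the cluster of 2, 19 fell and 1 rose with a median of -1.60. A total of 17 of the 23 had a change below 0 in both, and the share of all genes below 0 in both is not given here. The median change of all genes was 0.08 in the cluster of 3 and -0.23 in the cluster of 2. Of all genes, 27.4% were called lower and 37.4% higher in the cluster of 3, and 45.7% and 26.2% in the cluster of 2. In the 7 libraries of 1 normalization set, controls 4 and 5 and the 5 stiripentol libraries, 11 were called lower. The share of all genes called in that fit is not given here. Ctgf, a secreted matrix protein and a standard YAP1 readout, ran from 9.47 to 10.7 log2 CPM in control and from 3.01 to 6.83 in stiripentol, a log2 change of -4.59 (SE 0.80, limma adjusted p = 0.00274). Ccdc80, an extracellular matrix protein, fell by 4.23 (SE 0.30, adjusted p = 3.56e-05), from 3.15 to 3.70 in control to between -1.84 and -0.32. Cyr61, another matrix protein of the CCN family, fell by 2.25 (SE 0.23, adjusted p = 0.000181). Gadd45a, a stress-induced growth arrest gene, was the 1 target that rose, by 1.96 (SE 0.30, adjusted p = 0.00142), from 5.86 to 7.03 in control to 8.11 to 9.21 in stiripentol.

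**Figure D3:**
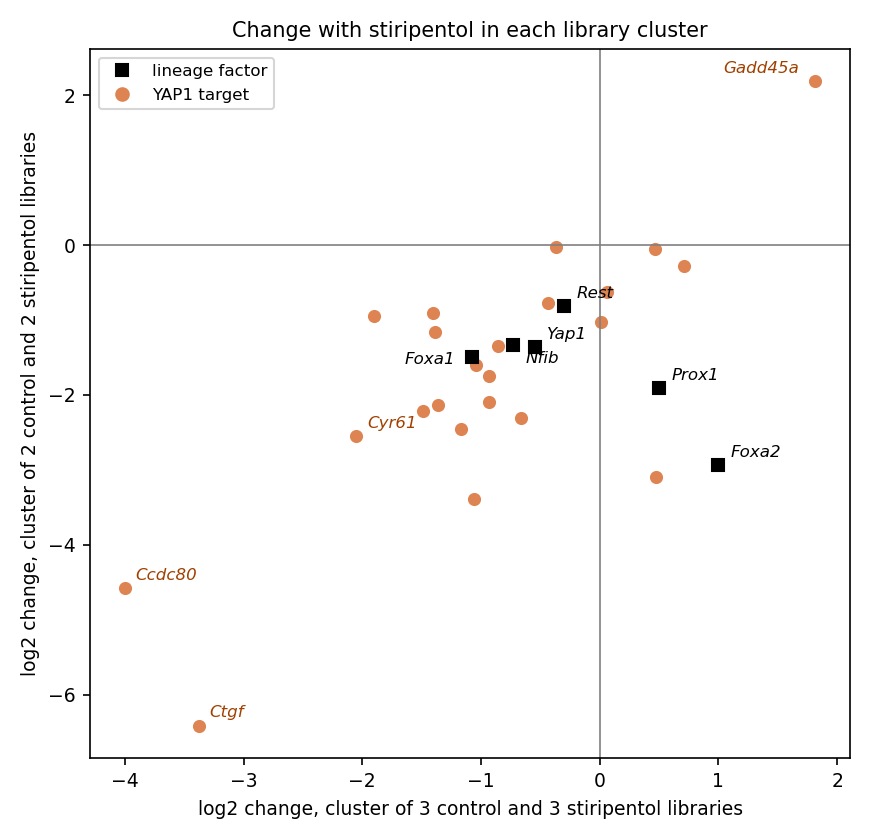
Log2 change with stiripentol in the cluster of 2 control and 2 stiripentol libraries (vertical) against that in the cluster of 3 and 3 (horizontal), with squares for the 6 tested members and circles for YAP1 targets. Most points lie below 0 on both axes, and Foxa2 and Prox1 lie at the right and below 0.

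The Hippo list held genes of the cascade that restrains YAP1 and also the TEAD factors through which YAP1 works. Of its 19 genes, 4 fell and 1 rose, with a median of -0.26. This is 21.1% lower and 5.3% higher, against 14.1% and 13.6% of all genes. Within clusters, 7 were called lower and 3 higher in the cluster of 3, and in the cluster of 2, 11 were called lower and 1 higher. The shares of all genes were 27.4% lower and 37.4% higher in the cluster of 3, and 45.7% and 26.2% in the cluster of 2. The lower calls over all libraries dropped to 2 without any one of controls 1, 2 and 3 or stiripentol 1 and 2. Those called lower were Amotl2, by -1.21 (SE 0.18, adjusted p = 0.00146), and Lats2, by -1.05 (SE 0.16, adjusted p = 0.00131), both of which are also YAP1 targets, together with the scaffolds Sav1 (-0.66, adjusted p = 0.0344) and Amot (-0.44, adjusted p = 0.0475). Taok1, an upstream kinase, rose by 0.43 (adjusted p = 0.0149). The paralog of Yap1, Wwtr1, which encodes TAZ, had a log2 change of -0.06 (limma adjusted p = 0.740), and Tead1 one of -0.41 (adjusted p = 0.139).

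REST works with a set of chromatin cofactors, most of which INSM1 also uses. Of 15 tested, 1 fell and 1 rose, with a median of -0.16, which is 6.7% in each direction against 14.1% lower and 13.6% higher of all genes. The cluster of 3 had 2 called lower and 3 higher, and in the cluster of 2, 9 were called lower and 2 higher. All genes gave 27.4% lower and 37.4% higher in the cluster of 3, and 45.7% and 26.2% in the cluster of 2. Hdac1, a histone deacetylase, fell by 0.92 (SE 0.16, limma adjusted p = 0.00240), from 6.55 to 7.25 log2 CPM in control to 5.78 to 6.26 in stiripentol. Ehmt2, a histone H3 lysine methyltransferase, rose by 0.44 (SE 0.11, adjusted p = 0.0134). Of 16 neuronal genes with an RE1 element that had values, only 4 were high enough to test, and 10 stayed under 1 CPM in every library. Bdnf, a neurotrophin, fell by 1.03 (SE 0.13, adjusted p = 0.000602), from 5.64 to 6.18 in control to 4.63 to 5.04 in stiripentol, and Stmn2 was not called, at -0.55 (adjusted p = 0.0882). Over all libraries none of the 4 was called higher by limma. In the cluster of 3, of 5 tested, 3 were called higher and 2 lower, with a median of 0.38, and in the cluster of 2 all 4 tested were called lower, with a median of -1.28, while Rest was called lower in both.

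Genes that NKX2-1 and the FOXA factors turn on in lung epithelium were mostly silent: of 9 with values, 3 could be tested. The lipid transporter Abca3 rose by 0.60 (adjusted p = 0.0382) and the protease Napsa by 0.66 (adjusted p = 0.0204). Both calls were lost without control 2 or stiripentol 2, and 1 of them without control 1 or 3 or stiripentol 1 or 4. Inside the clusters all genes of the list that were tested were called higher, 3 in the cluster of 3 and 2 in the cluster of 2. Of all genes, 37.4% and 26.2% were called higher there. Among family members of the 9 factors, 1 of 5 tested was called lower, Nfix (-0.54, adjusted p = 0.0344), where 14.1% of all genes were called lower. That call was lost without any one of controls 1 to 3 or stiripentol 1, 2, 3 and 5. In each cluster 3 of the 5 were called lower, against 27.4% of all genes in the cluster of 3 and 45.7% in the cluster of 2. Nfia had a value of -0.68 (adjusted p = 0.0932).

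Other lineage factors of lung cancer and neuroendocrine cells gave 3 lower and 1 higher of 14 tested, with a median of -0.40. This is 21.4% lower and 7.1% higher, against 14.1% and 13.6% of all genes. The lower calls dropped to 1 without any one of controls 1 to 3 or stiripentol 1 to 4. Inside the clusters, 5 of 15 were called lower and 3 higher in the cluster of 3, and in the cluster of 2, 8 of 12 were called lower and 2 higher. For all genes these shares were 27.4% lower and 37.4% higher in the cluster of 3, and 45.7% and 26.2% in the cluster of 2. Sox2, a stemness factor of airway and neural cells, fell by 2.46 (SE 0.80, limma adjusted p = 0.0423). It ran from 2.27 to 3.53 log2 CPM in controls 1 to 3 but from -0.40 to 0.26 in controls 4 and 5, so 1 control cluster was already near the stiripentol level of -1.99 to 0.35. Hes6, a target of neuroendocrine factors, fell by 1.19 (SE 0.27, adjusted p = 0.00999). Sox9, a factor of distal lung progenitors, rose by 0.79 (SE 0.20, adjusted p = 0.0148), from 4.53 to 5.57 in control to 5.51 to 6.00 in stiripentol.

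The markers of the neuroendocrine state gave 1 higher and none lower of 3 tested by limma over all libraries, but the clusters differed. In the cluster of 3, 2 were called higher and none lower, and in the cluster of 2, 2 were called lower and 1 higher, with medians of 0.57 and -1.18. Among all genes, 27.4% were called lower and 37.4% higher in the cluster of 3, and 45.7% and 26.2% in the cluster of 2. Ncam1 rose by 0.46 (SE 0.10, adjusted p = 0.00911), from 92.8 to 117 CPM in control to 126 to 154 CPM. Cadm1 was not called over all libraries, at -0.48 (adjusted p = 0.117), with -0.02 in the cluster of 3 and -1.18 in the cluster of 2. Uchl1 was not called either, at 0.22 (adjusted p = 0.779), with 1.496 in the cluster of 3 and -1.69 in the cluster of 2. Of 11 non-neuroendocrine tumor cell markers, 6 fell and 1 rose, with a median of -0.73, or 54.5% lower against 14.1% of all genes, and 2 of the 6 were the YAP1 targets Ctgf and Cyr61. The rise was in Lgals3, which encodes galectin-3 (0.75, adjusted p = 0.0171). Vim, the mesenchymal filament, had a value of 0.28 (adjusted p = 0.381). These 11 markers were mixed inside the clusters. They gave 6 lower and 4 higher in the cluster of 3 (median -0.37), and 7 lower and 2 higher in the cluster of 2 (median -0.62).

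**Figure D4:**
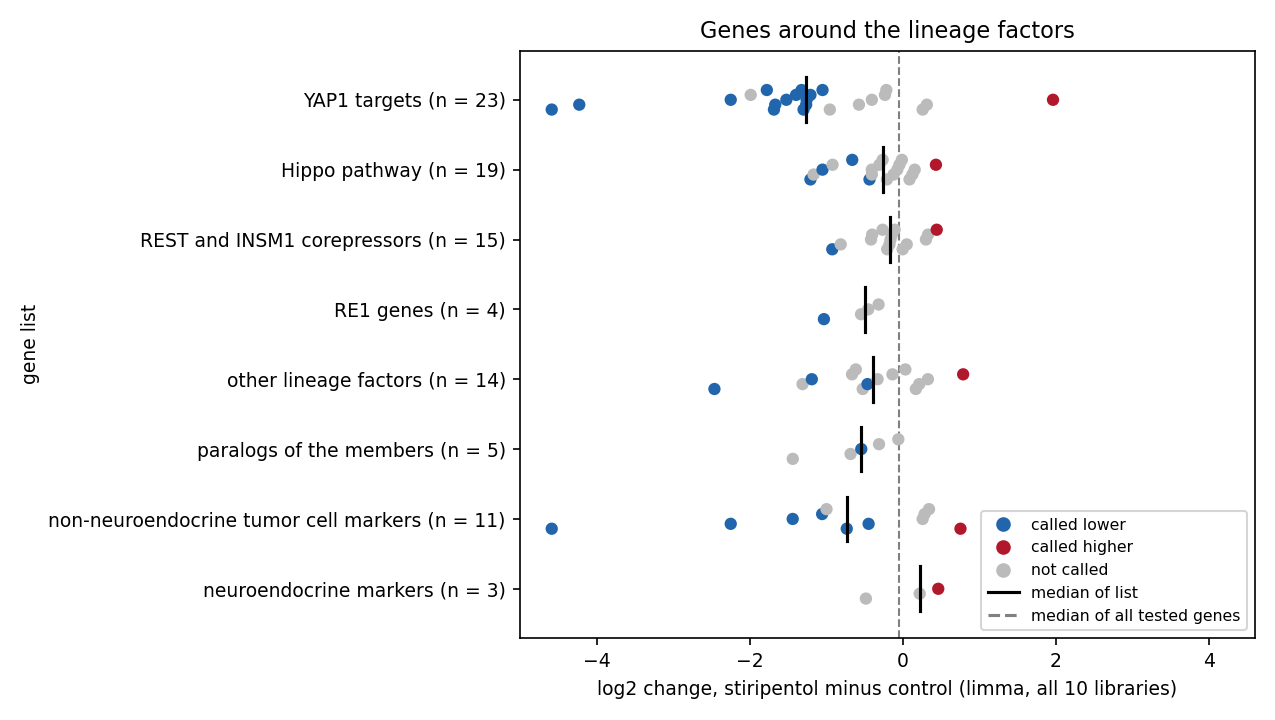
Log2 change with stiripentol (limma, all 10 libraries) of every tested gene of 8 lists, with a bar for the median of each list and a dashed line at the median of all genes, -0.06. Of the 23 YAP1 targets, 14 were called lower, and the 6 fibroblast markers, not drawn, had a lower median of -1.38.

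Markers of other cell types also moved with the groups. Of 6 fibroblast markers tested, 4 fell, or 66.7% against the 14.1% of all genes called lower. In the cluster of 3, 5 were called lower and none higher, and in the cluster of 2, 4 lower and 1 higher. All genes gave 27.4% and 37.4% in the cluster of 3, and 45.7% and 26.2% in the cluster of 2. Col1a1 and Dcn changed direction between clusters. Col3a1 was at 8.18 to 8.36 log2 CPM in controls 1 to 3 and at 4.73 to 5.03 in controls 4 and 5. The sum of the list ran from 404 to 696 CPM in control and from 152 to 185 CPM in stiripentol. Lum and Thy1 had at most 3 reads in any library. Of the leukocyte markers, Cd68, a lysosomal protein, rose by 3.21 (adjusted p = 0.000819), while Ptprc and Itgam had at most 3 reads in any library. The sum of that list ran from 6.52 to 19.0 CPM in control and from 59.0 to 103 CPM in stiripentol. Endothelial markers summed to 0.283 to 1.20 CPM over all libraries. Of the tuft cell markers, Dclk1 fell by 1.45 and Avil rose by 5.01 (adjusted p of 0.000115 and 0.000327), and Pou2f3, the defining factor, ran from 0.845 to 4.51 CPM in control and from 0.0517 to 0.267 CPM in stiripentol. Foxj1, the ciliated cell factor, fell by 2.02 (adjusted p = 0.00408). The part of these lists in the values of the lineage factors was not tested.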

How the data were processed

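The authors deposited 1 table of log2 CPM per gene and library, made with GENAVi per the methods, and the processing notes name mm10. The aligner, counter and annotation are not given in the sources used here. The p-values and group means that the authors deposited were not used. All values under 1000 reads were whole reads within 0.05 after removal of the prior, which gave the library totals. The deposited values entered a linear model in limma 3.58.1 (R 4.3.3), moderated by eBayes along the mean-variance trend, and p-values were adjusted by Benjamini-Hochberg across 12306 genes whose mean exceeded 0. Exact permutation tests were run in R. The clustering and motif searches used Python 3.11.15 with numpy 2.4.6, scipy 1.17.1 and pandas 2.3.3. Library clusters came from average linkage on 1 minus Pearson r, cut at 2 in each group. The members and gene lists were chosen with earlier results of these data known. Named genes are the members, up to 2 called genes with the largest rise and fall in each list, and the 3 most correlated genes per member. Any further gene was named with its value known. Alternatives were a cluster term, a replicate block, omission of each library, each cluster alone, 2 scalings, 2 filters, log2(CPM + 1) and limma voom on recovered reads. The 7 libraries of 1 normalization set and 1 mean per group and cluster were added after the data were seen. The scripts were tested on simulated data. The results of 2 genes of the lists are not reported here.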

Additional observations from a re-analysis of the deposited data

Results flagged for a closer look

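Control 5 was the shallowest library, at 22375625 reads, and its gap to the next control, divided by the range of the 5 controls, was 0.83, above Dixon's limit of 0.71 for 5 samples. It was the 1 such value among 18 groups of 5 examined, and chance gives 0.9. The adjusted p of Foxa1 without any 1 library, control 5 included, stayed within 0.000259 to 0.00183. No other value was far from its group by that limit.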

How the results depend on the processing

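Quantile normalization, median centring, another filter, log2(CPM + 1) and limma voom on recovered reads left the 4 members called lower, and with no filter 3 were called, Nfib (adjusted p = 0.0652) and Rest (0.0693) being lost and Nkx2-1 gained (0.0476). The numbers of genes called lower and higher were 1740 and 1674 as deposited. They were 1864 and 1762 with voom, 1062 and 1020 with a replicate block, 3336 and 2908 with the cluster as a term, 3402 and 4648 in the cluster of 3, 5570 and 3186 in the cluster of 2, and 0 and 0 with limma on 1 mean per group and cluster, where 1122 genes, Foxa1 and Yap1 among them, had an unadjusted p under 0.05. Leaving out 1 library gave 1182 to 1807 lower and 1203 to 1706 higher. Members called lower numbered 1 to 4 with a library left out, 1 with a replicate block, 1 in 1 normalization set and 0 on cluster means. Members called higher numbered 2 in the cluster of 3, where Prox1 (0.50) and Foxa2 (1.00) turned under the match by size. YAP1 targets called lower numbered 12 to 16 with a library left out and 0 on cluster means. With the replicate block, Foxa1 stayed called (adjusted p = 0.00781) while Yap1 (0.0705), Nfib (0.0912) and Rest (0.101) did not. The correlation of same-numbered libraries' deviations was -0.24 to 0.06, with a mean of -0.15. The clusters fall on different numbers in the 2 groups, so this cannot tell whether the numbers pair the samples. Depth limits Insm1 and Nkx2-1, which had at most 10 and 38 reads in a library.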
